A study of Mus musculus with 4 samples.

Results

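DNA methylation in mammals is written by DNMT enzymes and taken off through oxidation by TET enzymes, and the genes of both groups are the subject here. The 8 genes were Dnmt1, Dnmt3a, Dnmt3b, Dnmt3l, Tet1, Tet2, Tet3 and Uhrf1, chosen by name from 21864 protein-coding genes. ATAC-seq, in which a transposase inserts sequencing adapters into open chromatin, was performed in mouse embryoid bodies (EBs) on day 4. EBs are aggregates in which embryonic stem cells leave self-renewal and enter the early lineages. The cells were the mESC line E14Tg2A, grown on inactivated mouse fibroblasts with LIF and the 2i inhibitors and then differentiated in hanging drops without LIF. WT EBs were compared with EBs whose CTCF, a chromatin architecture protein, has lysine 20 replaced by arginine (CTCF-K20R). The change was made by CRISPR/Cas9 in colonies selected with a drug and checked by sequencing; how many colonies the libraries stand for is not given in the sources used here. There were 2 libraries of each genotype. The methods call them biological replicates from independent experiments.

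DNMT3A and DNMT3B set new methylation, with DNMT3L as a cofactor that has no catalytic activity of its own. DNMT1 copies the pattern at replication, and UHRF1 brings it to hemimethylated CpG sites. TET1, TET2 and TET3 oxidise 5-methylcytosine, which opens the way to its removal. Embryonic cells that leave the naive pluripotent state are known to take up methylation across the genome while these genes are regulated.

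Peaks of accessible chromatin were ordered within each library's own list by the −log10 p that the authors deposited, and the rank was expressed as a percentile, where 100 is the strongest peak. There were 59783 and 66703 peaks for the WT libraries, compared with 51823 and 55832 for those of K20R. A promoter value was the percentile of the strongest peak within 1 kb of any annotated transcription start site (TSS) of the gene. A value was called lower in K20R where both K20R libraries ranked below both WT ones, higher where both lay above, and overlapping otherwise. With 2 against 2 libraries the smallest exact permutation p is 0.333, so these calls are descriptions, read against the share of all genes or regions that met the same rule. Shorter lists lower the percentiles of shared peaks, and therefore each value was also ranked anew among only those genes or regions present in all 4 lists. The read pileup at each summit, recovered from the deposited fold and p, gives the raw signal. Its median was 25 and 33 reads in WT, compared with 29 and 38 reads in K20R, so the second replicate of either genotype had the taller peaks. Markers were checked in the same way. All 7 genes of pluripotent and primitive streak cells (Pou5f1, Nanog, Utf1, T, Eomes, Mixl1 and Mesp1) had a promoter peak in all 4 lists. Of 5 genes of cell types not formed by day 4, 0 did, and 3 had no peak in any list. Cd3e had a weak peak in both K20R lists (percentiles 20.4 and 5.6) and Myh6 in WT replicate 2 (21.0). Promoters of the endoderm genes Sox17, Foxa2 and Gata6 were lower in K20R in 3 of 3, with mean percentiles of 77.3 and 72.3 in WT versus 46.4 and 57.8 in K20R, and promoter peaks of 4 of 5 fibroblast genes had means of 74.2 and 81.0 in WT libraries and 73.5 and 75.4 in K20R libraries, with Thy1 the 1 of 4 that was lower. Of the 3 neuroectoderm genes Pax6 and Neurog1 were lower and Sox1 overlapped (means of 69.3 and 79.0 in WT, compared with 70.4 and 68.8 in K20R). Of the pluripotent and streak genes 3 were lower (Nanog, T and Mixl1) and 4 higher (Pou5f1, Utf1, Eomes and Mesp1). The means of these 7 genes were 74.2 and 73.9 in WT versus 75.7 and 76.4 in K20R. These marker calls used the whole list, where 32.2% of all genes were lower and 15.8% higher. Ranked anew, where the shares were 23.0% and 23.9%, Nanog overlapped and the fibroblast gene Col1a2 was higher. The other marker calls were the same in both rankings. A different mix of cell types and a different opening per cell cannot be told apart in these bulk libraries, and the part of these marker differences in the results that follow was not tested.

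The promoters of the methylation enzymes were open in both genotypes. A promoter peak was present in all 4 lists for 7 of the 8 genes, where 66.3% of all genes had one. The exception was Tet1, whose GENCODE TSSs had a peak in WT replicate 2 alone, at percentile 0.571. Curated RefSeq mRNAs start Tet1 at position 62887324 of chromosome 10, between the GENCODE TSSs, and a strong peak lay there in every library. With RefSeq TSSs all 8 genes had a promoter peak in all 4 lists, against 67.9% of genes, an alternative added after the Tet1 values were seen. Of the 7 genes, 1 was lower in K20R (Dnmt3b), 2 were higher (Dnmt3a and Dnmt3l), and 4 overlapped. The Dnmt3l value was in every list that of a peak with its summit within 1 kb of a TSS of the neighbouring gene Aire. Over all genes 32.2% were lower and 15.8% higher, and the anew ranking, which gave the same 3 calls for the 7 genes, placed 23.0% lower and 23.9% higher. By log2 pileup centred on each library's median over regions present in all 4 lists, 14.1% of all genes were lower and 40.7% higher. The median shift over all genes was 0.11, and of the 7 genes 0 were lower and 5 higher. The median difference between K20R and WT was -0.552 percentile points over the 7 genes and -0.826 over all genes.

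**Figure D1:**
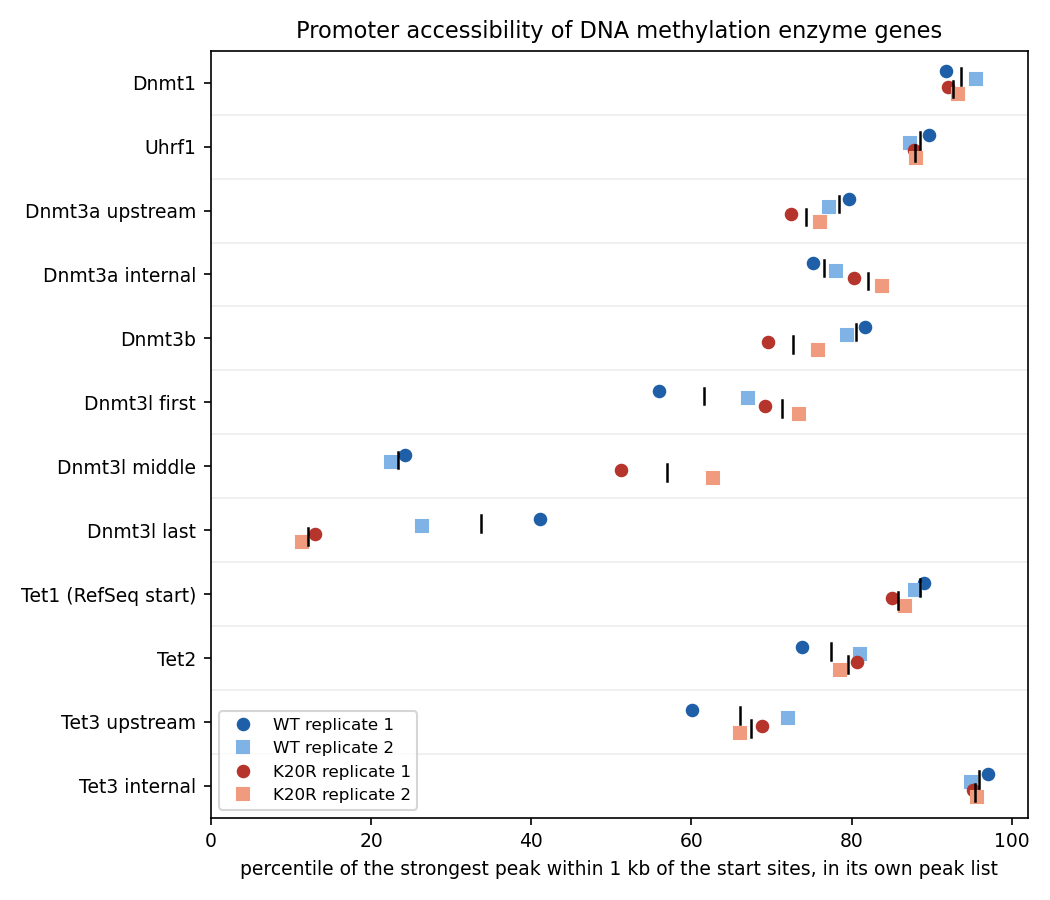
Percentile of the promoter peak in each library's own list (x axis) for each group of start sites of the methylation enzyme genes (y axis), with circles for replicate 1, squares for replicate 2, blue for WT, red for K20R and a black bar at the mean of 2 libraries. The middle Dnmt3l start site differed most, lying below 25 in both WT libraries and above 50 in both K20R libraries, while Dnmt1, Uhrf1 and the internal Tet3 site stayed near the top of every list.

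Dnmt1 encodes the maintenance methyltransferase. Its promoter peak (chr9:20951938-20953525) had percentiles of 91.7 and 95.6 in WT, compared with 92.1 and 93.3 in K20R, so the genotypes overlapped. The pileup was 87 and 149 reads in WT versus 106 and 163 reads in K20R. A separate upstream Dnmt1 TSS, at position 20959888, had no peak in any list. Uhrf1, its recruiting partner, had percentiles of 89.7 and 87.3 in WT libraries and 87.8 and 88.0 in K20R libraries at a peak that covered both of its TSS groups (chr17:56302486-56304665). Both maintenance genes thus stood at percentile 87.3 or above in every list, and their genotypes overlapped in the whole list and in the anew ranking. By percentile of fold enrichment Dnmt1 was lower in K20R (-3.80 points), where 24.6% of all genes were lower and 14.2% higher, whereas by centred log2 pileup Dnmt1 (0.16) and Uhrf1 (0.19) were higher.

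Dnmt3a has an upstream TSS and, far inside the gene, an internal one, and the RNA from the latter encodes the shorter protein DNMT3A2, the main form in embryonic stem cells. At the upstream TSS the percentiles were 79.7 and 77.2 in WT, compared with 72.5 and 76.1 in K20R (78.4 ± 1.75 against 74.3 ± 2.57, SD, n = 2). This was lower in K20R in the whole list, but the genotypes overlapped in the anew ranking. At the internal TSS the percentiles were 75.2 and 78.0 in WT versus 80.4 and 83.8 in K20R (76.6 ± 2.01 against 82.1 ± 2.45, SD, n = 2), higher on both scales. The pileups there were 76 and 117 reads in WT libraries and 93 and 163 reads in K20R libraries. The value of the whole gene is the stronger of both sites, which was the upstream one in WT replicate 1 and the internal one in the other 3 libraries. Of 766 genes with separate peaks at 2 or more TSS groups, 13.4% had groups placed in opposite directions, and 15.0% did in the anew ranking. Dnmt3a was among them only in the whole list, Dnmt3l in both, and Tet3 in neither.

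The internal promoter of Dnmt3a, the higher one in K20R, is shown with the promoter of Dnmt3b, which went the other way. Both are from RefSeq (GRCm38.p6), plus strand, chr12:3891494-3891793 and chr2:153649199-153649498. Capitals mark GC boxes (GGGCGG on either strand) and E-boxes (CACGTG).
Dnmt3a internal promoter: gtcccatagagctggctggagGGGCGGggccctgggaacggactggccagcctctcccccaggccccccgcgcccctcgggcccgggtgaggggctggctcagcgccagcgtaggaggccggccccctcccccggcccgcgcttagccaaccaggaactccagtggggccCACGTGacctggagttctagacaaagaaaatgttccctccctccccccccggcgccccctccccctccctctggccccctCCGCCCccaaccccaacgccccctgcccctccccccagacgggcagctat
Dnmt3b promoter: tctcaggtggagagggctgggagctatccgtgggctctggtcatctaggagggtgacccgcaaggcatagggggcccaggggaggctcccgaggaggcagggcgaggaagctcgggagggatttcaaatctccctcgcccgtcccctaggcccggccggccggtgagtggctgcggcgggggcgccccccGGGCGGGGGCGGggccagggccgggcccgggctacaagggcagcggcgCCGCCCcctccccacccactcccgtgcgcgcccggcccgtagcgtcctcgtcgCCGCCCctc
The Dnmt3a promoter held 2 GC boxes and 1 E-box, and the Dnmt3b promoter 4 GC boxes. Of all RefSeq promoters 35.7% held a GC box and 7.15% this E-box. A match of letters describes the sequence and is no measure of binding.

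Dnmt3b encodes the methyltransferase that rises when pluripotent cells leave the naive state. Its promoter peak (chr2:153648846-153650604) had percentiles of 81.7 and 79.5 in WT, compared with 69.6 and 75.8 in K20R, or 80.6 ± 1.58 against 72.7 ± 4.34 (SD, n = 2). The K20R values were both below the WT values, with a difference of -7.88 points between the means, and the same held in the anew ranking. The pileups of 75 and 97 reads in WT versus 62 and 105 reads in K20R overlapped.

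Dnmt3l encodes the cofactor of the de novo enzymes, and its 3 TSS groups did not differ in the same direction. The first TSS had percentiles of 56.0 and 67.1 in WT libraries and 69.2 and 73.5 in K20R libraries. That peak (chr10:78042927-78043984) came within 640 bp of the Dnmt3l TSS, had its summit 1271 bp downstream of it and within 1 kb of a TSS of the neighbouring gene Aire, and carried the CTCF consensus. The middle TSS group had percentiles of 24.2 and 22.6 in WT, compared with 51.2 and 62.7 in K20R, with pileups of 14 and 17 against 36 and 62 reads. The last TSS had percentiles of 41.0 and 26.3 in WT versus 13.0 and 11.3 in K20R, with pileups of 17 and 16 against 15 and 15 reads. The middle site was therefore higher in K20R, by 33.6 points and on both scales, and the last site lower, with a difference of -21.5 points. Among all TSS groups with a peak in all 4 lists 32.5% were lower and 15.9% higher, and 23.1% and 24.2% in the anew ranking. The middle promoter is printed from RefSeq (GRCm38.p6), plus strand, chr10:78049592-78049891, as the promoter with the widest separation, with GC boxes and the E-box in capitals.
Dnmt3l middle promoter: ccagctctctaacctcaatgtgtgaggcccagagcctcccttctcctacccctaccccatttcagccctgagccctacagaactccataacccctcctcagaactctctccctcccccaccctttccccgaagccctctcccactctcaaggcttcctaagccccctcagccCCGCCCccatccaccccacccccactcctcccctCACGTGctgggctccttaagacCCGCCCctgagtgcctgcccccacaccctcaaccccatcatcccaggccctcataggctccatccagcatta
It held 2 GC boxes and 1 E-box. In the 300 bases around its strongest summit the accessible region had 61% GC and 9 CpG sites, against a median of 67.7% and 20 over the 11 promoter regions of the enzyme genes.

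No promoter of a TET gene separated the genotypes in both the whole list and the anew ranking. The Tet1 peak at the RefSeq TSS (chr10:62885555-62887672) had percentiles of 89.1 and 87.9 in WT libraries and 85.0 and 86.6 in K20R libraries, lower in the whole list and overlapping in the anew ranking. Its pileups were 99 and 141 reads in WT, compared with 100 and 166 reads in K20R. Tet2 had percentiles of 73.8 and 81.1 in WT versus 80.7 and 78.5 in K20R (chr3:133543084-133545454), which overlapped. By centred log2 pileup Tet2 was higher in K20R (0.27), where 40.7% of all genes were. With every list trimmed to the length of the shortest it was also higher (6.07 points), where 29.6% were. For Tet3 the internal TSS was among the strongest peaks, at percentiles of 97.0 and 94.9 in WT libraries and 95.1 and 95.6 in K20R libraries. Its upstream TSS stood at 60.1 and 72.0 in WT, compared with 68.8 and 66.1 in K20R. At both Tet3 sites the genotypes overlapped in the whole list and in the anew ranking, while by fold Tet3 was higher in K20R (4.64 points).

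Peaks that shared a base were merged into 80380 regions, 100 of which lay within 50 kb of a TSS of the enzyme genes. The number of peaks there was 76 and 84 in WT versus 81 and 80 in K20R (80 ± 5.66 against 80.5 ± 0.707, SD, n = 2, exact two-sided permutation p = 1). Of the 100 regions 63 had a peak in all 4 lists and are called common, where 47.9% of all regions were common. A region in both lists of one genotype and in neither of the other was called restricted. There were 5 WT-restricted regions, against 10.4% of all regions, and 1 K20R-restricted region, against 3.1%. Each region was placed by its strongest summit, and it counted as a promoter region where that summit lay within 1 kb of a TSS of any protein-coding gene. Promoters of any gene held 24 of the 100 regions, introns 48, intergenic sequence 25, UTR exons 2 and coding exons 1. None of the 6 restricted regions lay in a promoter, and 23 of the 24 promoter regions were common. The same split over all 80380 regions is not given here, so these counts only describe the regions.

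Where a region was open in all 4 lists, it ranked lower in K20R more often than higher. Of the 63 common regions 32 were lower (50.8%, where 34.8% of all common regions were) and 8 higher (12.7%, against 18.6%). Ranked anew, 22 were lower and 11 higher, against 25.5% and 29.2%, and by centred pileup 20 were lower and 17 higher, against 23.7% and 35.6%. With every list trimmed to the length of the shortest, 16 of 61 were lower and 13 higher, against 22.6% and 33.1%. Outside promoters 24 of 40 were lower (60%, against 36.4%) and 4 higher (10.0%, against 20.0%), and in the anew ranking 17 and 6, against 28.6% and 29.8%. The median difference outside promoters was -7.69 points near the enzyme genes and -2.74 over all such regions. Near Dnmt3a 8 of 12 common regions outside promoters were lower and 0 higher. Near Dnmt3b 4 of 7 were lower and 1 was higher, near Tet1 4 of 5 were lower and 1 was higher, and near Uhrf1 3 of 5 were lower and 1 was higher. Near Dnmt1 the count was 2 lower of 4, near Dnmt3l 2 of 5 with 1 higher, near Tet2 0 of 1 and near Tet3 1 of 1. In the anew ranking the lower and higher counts were 6 and 0 near Dnmt3a, 3 and 2 near Dnmt3b, 2 and 1 near Tet1, 3 and 1 near Uhrf1, 2 and 1 near Dnmt1, 0 and 1 near Dnmt3l, 0 and 0 near Tet2, and 1 and 0 near Tet3. The Tet1 count includes the peak at the RefSeq TSS, which GENCODE places in an intron. The Dnmt3a count includes a lower region that comes within 478 bp of a Dnmt3a TSS (chr12:3807638-3809133). Its summit lies 1631 bp downstream of the 5′-most TSS, and it overlapped in the anew ranking. Regions close to one gene share their surroundings and are not replicates.

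**Figure D2:**
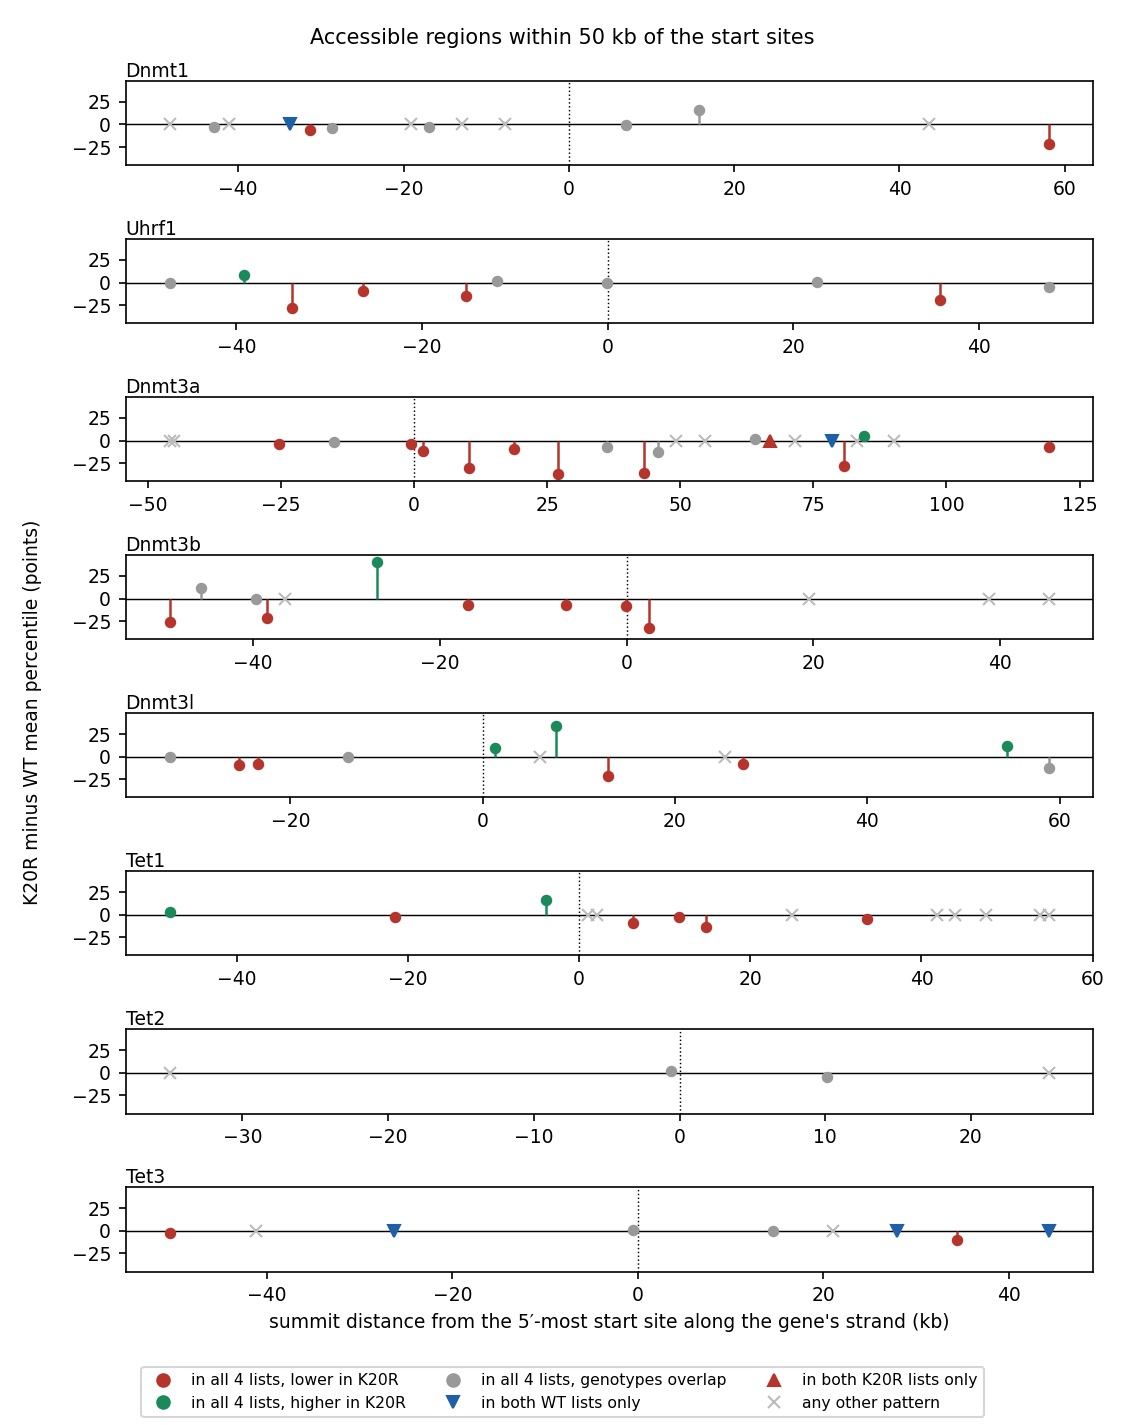
Every accessible region within 50 kb of the start sites of each gene, placed by its summit's distance in kb from the 5′-most start site (x axis), with the K20R minus WT difference of mean percentiles in points (y axis) for regions in all 4 lists and markers at 0 for restricted and other regions. Dnmt3a has red (lower) regions at several places along its body, Dnmt3b has a high green point at 26.7 kb upstream and a low red one at 2.4 kb downstream, and Tet3 has 3 of the 5 WT-restricted regions.

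Around Dnmt3b the largest differences went in opposite directions. An intronic region of the neighbouring gene Commd7, with its summit 26706 bp upstream of the Dnmt3b TSS (chr2:153622102-153623174), had percentiles of 37.6 and 34.4 in WT libraries and 75.6 and 77.3 in K20R libraries. The pileups were 23 and 29 reads in WT, compared with 50 and 76 reads in K20R. This difference of 40.5 points (51.9 in the anew ranking) ranked 132 among 38527 common regions. Just inside Dnmt3b itself, an intronic region with its summit 2373 bp downstream of the TSS (chr2:153651330-153652055) had percentiles of 75.1 and 77.8 in WT versus 45.3 and 43.3 in K20R, with pileups of 64 and 94 against 41 and 57 reads. The Dnmt3b promoter and this intron were thus lower and the upstream region higher in K20R. The strongest common region outside promoters, 39643 bp upstream (chr2:153609534-153610165), had percentiles of 80.3 and 82.7 in WT libraries and 78.5 and 82.9 in K20R libraries, which overlapped, although the anew ranking placed it higher. At 48917 bp upstream (chr2:153600255-153600900) a region with the CTCF consensus had 59.2 and 69.6 in WT, compared with 49.2 and 28.7 in K20R, lower on both scales.

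At Dnmt3a the widest separations lay inside the gene, between the upstream and the internal TSS. An intronic region with its summit 26973 bp into the gene (chr12:3833079-3835211) had percentiles of 76.4 and 73.3 in WT versus 32.7 and 42.8 in K20R, with pileups of 53 and 69 against 20 and 33 reads. A further intronic region 43233 bp in (chr12:3849550-3850909) had 33.7 and 44.2 in WT libraries and 1.8 and 5.5 in K20R libraries, with pileups of 18 and 28 against 11 and 11 reads. Both were lower on both scales. Also in introns, a WT-restricted region at chr12:3884931-3885697 had percentiles of 35.6 and 41.7, and the K20R-restricted region at chr12:3873711-3874194 had 8.0 and 12.2, near the bottom of those lists. The strongest region outside promoters, 15058 bp upstream (chr12:3791486-3792523), had 87.5 and 91.4 in WT, compared with 87.7 and 88.2 in K20R and overlapped.

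Of the 9 regions near Tet3, 3 were WT-restricted, where 10.4% of all regions were. Of the 4 common ones 2 were lower in K20R and 0 higher, where 34.8% and 18.6% of all common regions were. The 2 lower ones were a Tet3 intron region and the promoter of the neighbour Dguok (-2.30 points). Counts this small only describe the locus. A WT-restricted region in an intron of the neighbour Dguok, 26241 bp upstream of the Tet3 TSS (chr6:83482257-83483173), had percentiles of 83.9 and 87.1 with pileups of 58 and 97 reads. Among the 8341 WT-restricted regions its mean percentile ranked 43. Inside Tet3 the WT-restricted regions at chr6:83411660-83412756 and chr6:83428345-83428957 were weaker, with percentiles of 30.6 and 24.1 and of 35.4 and 31.1. A strong common region in a Tet3 intron, 34412 bp downstream of the TSS (chr6:83421563-83422605), had 95.2 and 96.8 in WT versus 84.8 and 87.0 in K20R, with pileups of 100 and 169 against 68 and 111 reads. It was lower on both scales.

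The sequences of 4 of these regions carry the distal part of the result: the largest difference in each direction, near Dnmt3b and in Dnmt3a, and the strong WT-restricted and lower regions of Tet3. Each line gives 300 bases of mm10, plus strand, around the strongest summit: chr2:153622594-153622893, chr12:3833853-3834152, chr6:83482483-83482782 and chr6:83421830-83422129. Capitals mark matches, on either strand, to the motifs searched, which were the GC box and E-box as before, CCAAT (the site of NF-Y), AGATAA (for the zinc finger proteins named GATA), the T-box letters TCACACCT, the TCF-LEF letters CTTTGAA, the CRE letters TGACGTCA, the ETS letters CCGGAAGT, the E2F letters TTTNNCGC, the octamer ATGCAAAT, the SOX letters ACAATGG, the AP-1 letters TGANTCA and the CTCF consensus, which is given by name.
Dnmt3b upstream region: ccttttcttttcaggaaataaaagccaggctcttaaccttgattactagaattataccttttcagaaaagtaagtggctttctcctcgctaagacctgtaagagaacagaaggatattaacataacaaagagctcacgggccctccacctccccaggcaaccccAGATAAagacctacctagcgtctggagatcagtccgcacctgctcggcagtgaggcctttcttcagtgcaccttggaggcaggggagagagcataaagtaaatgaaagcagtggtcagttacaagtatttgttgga
Dnmt3a intron region: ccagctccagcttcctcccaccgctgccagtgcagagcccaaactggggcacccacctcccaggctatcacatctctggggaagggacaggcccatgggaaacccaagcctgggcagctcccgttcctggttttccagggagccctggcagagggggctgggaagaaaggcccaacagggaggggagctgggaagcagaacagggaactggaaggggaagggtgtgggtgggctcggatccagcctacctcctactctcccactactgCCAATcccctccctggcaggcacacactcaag
Tet3 upstream region: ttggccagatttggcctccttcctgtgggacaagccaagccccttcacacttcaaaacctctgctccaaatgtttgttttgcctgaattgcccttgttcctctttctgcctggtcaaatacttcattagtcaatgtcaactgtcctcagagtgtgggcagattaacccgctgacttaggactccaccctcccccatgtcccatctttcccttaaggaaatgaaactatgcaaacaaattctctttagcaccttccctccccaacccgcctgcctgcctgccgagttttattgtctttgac
Tet3 intron region: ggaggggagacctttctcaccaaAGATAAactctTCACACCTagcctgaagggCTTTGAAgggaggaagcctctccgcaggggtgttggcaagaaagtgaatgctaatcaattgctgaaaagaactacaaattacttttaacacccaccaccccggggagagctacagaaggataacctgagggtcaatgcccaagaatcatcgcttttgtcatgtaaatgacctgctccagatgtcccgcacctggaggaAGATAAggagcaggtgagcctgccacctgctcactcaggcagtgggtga
The Dnmt3b upstream region had 1 GATA match and the Dnmt3a intron 1 CCAAT match. The Tet3 intron region had 2 GATA, 1 T-box and 1 TCF-LEF match. The Tet3 upstream region had none of the 13 motifs in this window. Of all 80380 regions 12.0% held the GATA letters, 1.72% the T-box, 5.98% the TCF-LEF and 31.8% the CCAAT letters in such a window.

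In the whole list, 2 common regions near Dnmt1 were lower and 0 higher, neither common region near Tet2 was separated, and near Uhrf1, Tet1 and Dnmt3l separated regions lay in both directions. Downstream of Dnmt1, at chr9:20901566-20902708, percentiles were 49.2 and 62.6 in WT libraries and 34.2 and 35.0 in K20R libraries, and upstream, at chr9:20990921-20991476, 83.0 and 86.4 against 76.2 and 79.9, both lower on both scales. The WT-restricted region near Dnmt1 (chr9:20993303-20993762) had percentiles of 39.4 and 37.1. All 10 regions near Uhrf1 were common. Of these, a Ticam1 UTR exon at chr17:56269081-56269770 had 56.3 and 66.8 in WT, compared with 34.6 and 31.2 in K20R, and a Kdm4b intron at chr17:56338811-56339320 had 74.1 and 70.4 against 49.8 and 55.8. Upstream of Uhrf1, chr17:56263873-56264668 had 78.4 and 68.0 in WT versus 79.7 and 82.9 in K20R and was higher. Both directions were also seen around Tet1, where the strong intronic region at chr10:62865219-62866802 had 96.0 and 97.0 in WT libraries and 93.0 and 90.5 in K20R libraries, while a region upstream of the gene (chr10:62901643-62903352) had 19.2 and 39.7 against 49.4 and 40.9. A weaker Tet1 intron region at chr10:62883934-62884937 had 32.0 and 41.4 in WT, compared with 14.7 and 30.5 in K20R. At Dnmt3l, chr10:78096381-78097334 had 53.9 and 52.7 against 65.4 and 65.5, higher on both scales, and chr10:78016482-78017679 had 67.0 and 78.5 in WT versus 61.2 and 66.2 in K20R, overlapping in the anew ranking. The Tet2 intron region at chr3:133532816-133534798 had 84.9 and 89.1 in WT libraries and 87.0 and 77.3 in K20R libraries, which overlapped. The CTCF consensus was found within 100 bp of the summit in 8 of the 100 regions (8%), where 5.97% of all regions had it.

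**Figure D3:**
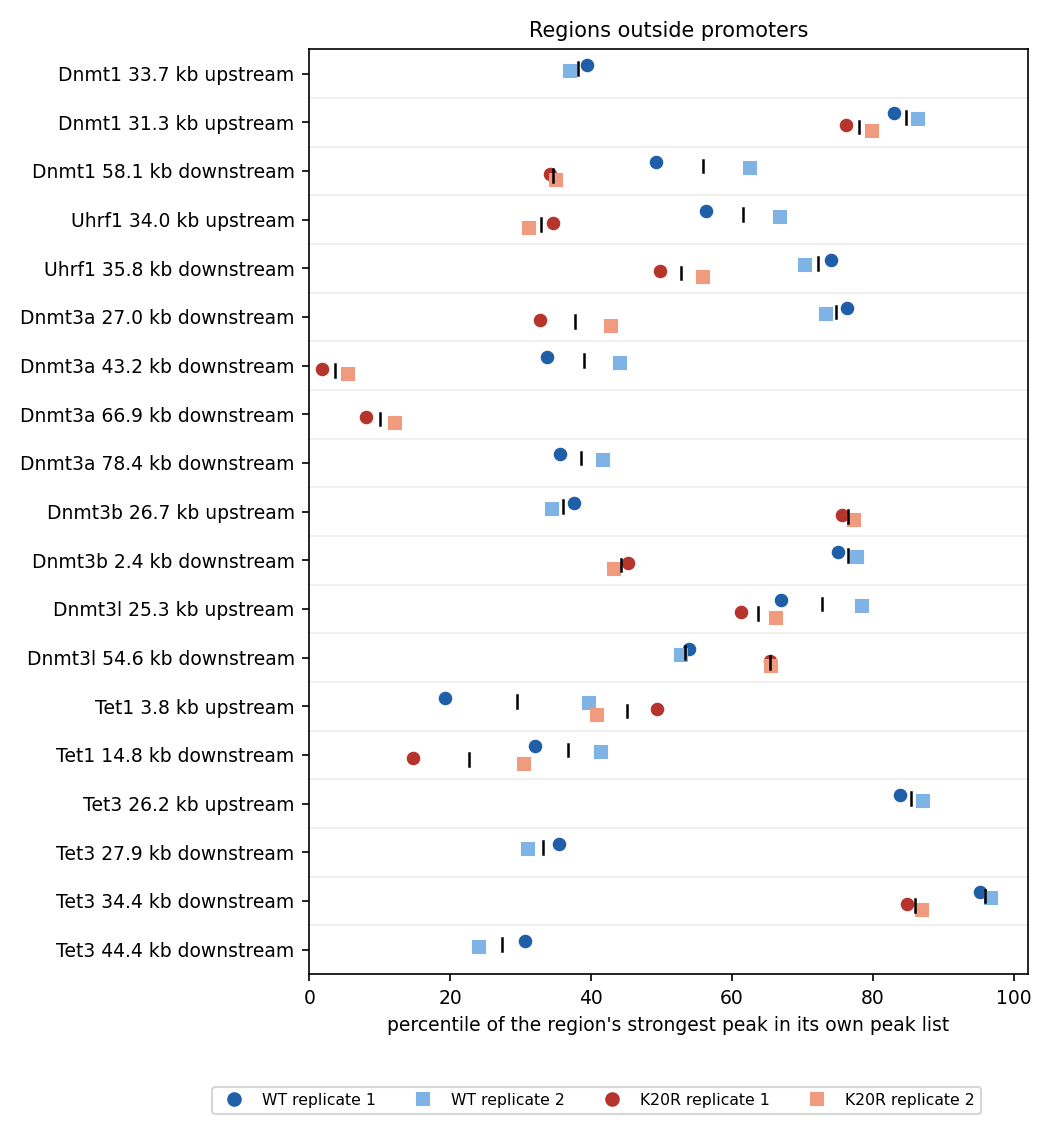
Percentile in each library's own list (x axis) of the regions outside promoters with the largest differences and of the restricted regions near each gene (y axis, with the distance of the summit from the 5′-most start site), with symbols as for the promoters and black bars at means of 2 libraries. The widest gaps are the Dnmt3b region 26.7 kb upstream, where K20R lies near 75 and WT near 35, and the Dnmt3a region 27.0 kb downstream, where the order is the opposite, and rows with points of only 1 colour family are restricted regions.

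A region can lack a peak in a deposited list although one was called, because the lists hold only 50.5% to 60.8% of their running peak numbers. At the WT-restricted regions near Dnmt1 and in Dnmt3a, 0 numbers were missing between the neighbouring peaks of both K20R lists, so no peak had been called there. At the Tet3 upstream region and at chr6:83428345-83428957 inside Tet3 1 number was missing in K20R replicate 1 and 0 in K20R replicate 2, at chr6:83411660-83412756 1 and 2 numbers were missing, and at the K20R-restricted region in Dnmt3a 1 number was missing in each WT list.

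Genes that work with the methylation enzymes were followed in the same way. Of 37 such genes, 35 had a promoter peak in all 4 lists. In K20R 14 were lower (40.0%, against 32.2% of all genes) and 3 higher (8.57%, against 15.8%), with a median difference of -1.06 points. In the anew ranking 11 were lower (31.4%, against 23.0% of all genes) and 4 higher (11.4%, against 23.9%). Among maintenance partners 2 of 6 were lower and 0 higher (2 and 1 in the anew ranking). Usp7, a deubiquitinase that binds DNMT1 and UHRF1, had percentiles of 92.6 and 89.0 in WT, compared with 81.0 and 86.1 in K20R. Among genes of proteins that bind methylated DNA and their relatives 1 of 7 was lower. This was Mbd3 of the NuRD complex, a relative that does not itself prefer methylated DNA, with 98.9 and 98.8 against 97.7 and 97.5. Among removal genes 1 of 5 was lower and 1 higher. Tdg, the glycosylase that excises the bases made by TET oxidation, had 93.7 and 95.8 in WT versus 85.5 and 87.4 in K20R, a difference of -8.31 points, and Gadd45b had 75.5 and 76.5 against 78.6 and 82.7. Among genes that guide or shield methylation 6 of 11 were lower and 1 higher (5 and 1 in the anew ranking). Cxxc4, whose CXXC domain binds unmethylated CpG and whose protein partners TET2, had 91.0 and 83.6 in WT libraries and 77.7 and 76.6 in K20R libraries, and Setdb1, a histone H3 lysine methyltransferase, had 86.3 and 86.2 against 86.5 and 89.5. Dppa3, which shields methylation in the early embryo, had no promoter peak in any list. Among genes of methyl donor supply 4 of 6 were lower and 1 higher (2 and 1 in the anew ranking). Mat2a, which makes S-adenosylmethionine, had 92.3 and 88.8 in WT, compared with 86.5 and 82.6 in K20R (overlapping in the anew ranking), and Gnmt, which consumes it, had 59.3 and 55.1 against 59.6 and 65.5.

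**Figure D4:**
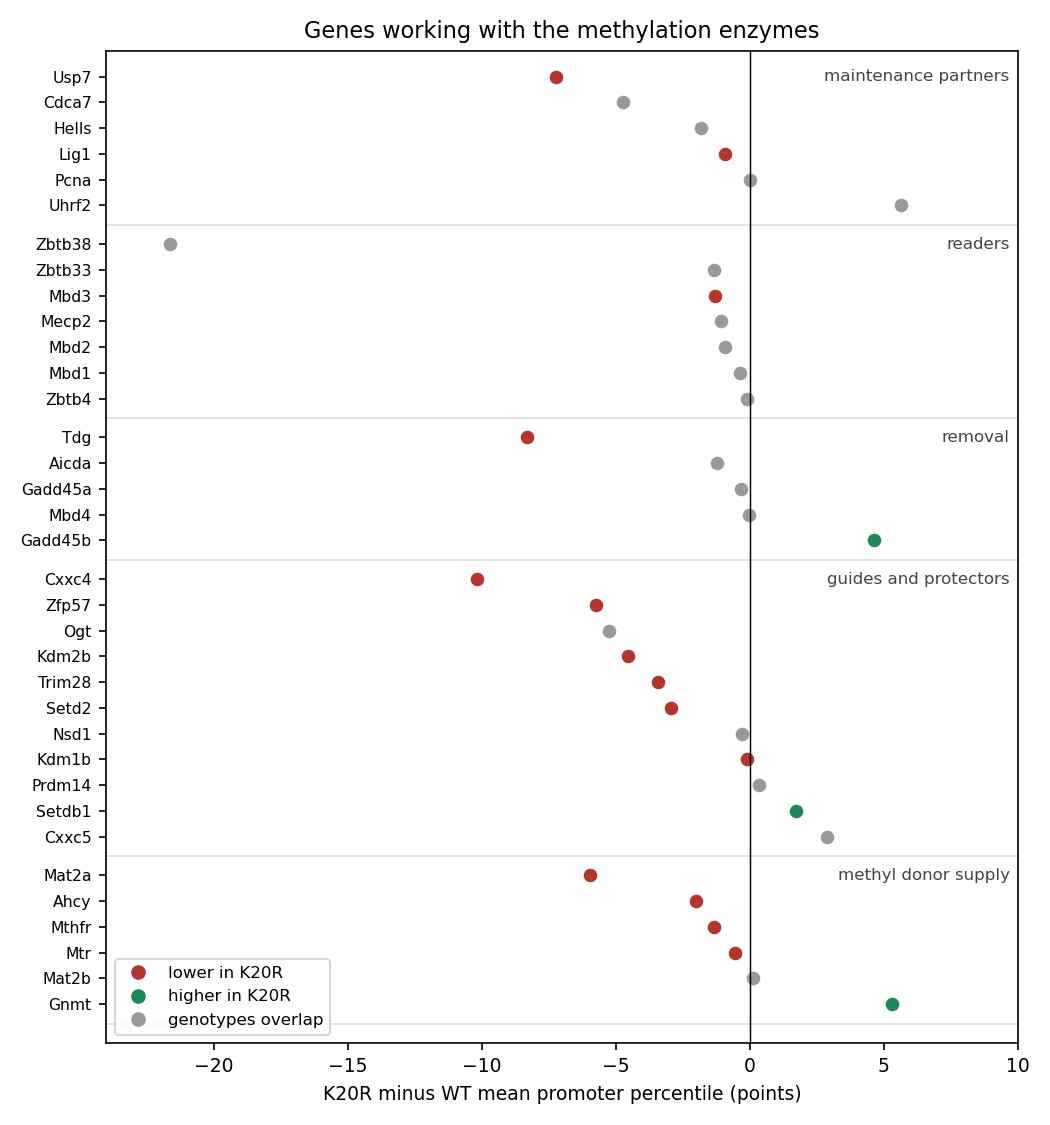
K20R minus WT difference of the mean promoter percentile in points (x axis) for 35 genes working with the methylation enzymes (y axis, grouped by role), in red where both K20R libraries lay below both WT libraries, in green where both lay above and in grey where the genotypes overlapped. Most points lie within a few points of 0, with Cxxc4, Tdg and Usp7 the furthest below it among the separated genes, and the grey Zbtb38 further out with overlapping genotypes.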

How the data were processed

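The 4 lists are MACS2 narrowPeak files on mm10, 1 per library. Per the methods of the study, reads were trimmed (Trim Galore) and aligned with Bowtie2, and low-quality, duplicate and blacklisted reads were removed. The deposited score of each peak is its −log10 p times 10. The deposited ratio is the fold of the summit pileup over local background. The authors' −log10 p and −log10 q refer to the same summit, and the deposited summit offset places it. The depth of the libraries is unknown, since totals of reads were not used here, and no test on read counts could be run.

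Peaks were ranked by −log10 p within each list (pandas 2.3.3, numpy 2.4.6), and peaks sharing 1 bp were merged. Start sites were those of GENCODE vM21 basic protein-coding transcripts, in groups split at gaps over 500 bp. Pileups solved from fold and p were whole, within 0.01 in −log10 p, for 99.97% to 99.998% of peaks. Promoter sequences of all 8 genes came from RefSeq (GRCm38.p6). Matplotlib 3.10.9 drew the figures. The rule was tried on 4000 simulated regions with Poisson noise and the same depth in every library. Of those lowered 4-fold 96.5% were placed lower, and of those raised 4-fold 97% were placed higher. This covers large changes alone and gives no error rate for the calls in the 4 libraries.

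The genes named were the 8 members. For each, the text names the strongest common region outside promoters, the largest separated differences, the restricted regions and, of the partner genes, the most negative and most positive separated gene of each role. The peaks with the CTCF consensus and Dppa3 were named after their values were seen. The members and lists were chosen with earlier results of these data known. Peak counts were compared by an exact permutation test (scipy 1.17.1). Alternatives changed the ranking, window, q threshold, start sites and libraries used.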

Additional observations from a re-analysis of the deposited data

How the results depend on the processing

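For the promoters of the 7 genes (1 lower, 2 higher), the count of lower genes was 2 by fold (against 24.6% of all genes). It was also 2 with the 5′-most TSS alone (31.8%), where only 6 genes had a peak in all 4 lists and Dnmt1 dropped out. With RefSeq TSSs it was 2 of 8 (32.1%), and the added lower gene was Tet1. It was 0 by centred pileup (14.1%), with −log10 q of at least 10 (18.2%) or with every list trimmed to the length of the shortest (18.6%). The count of higher genes was 1 with the 5′-most TSS alone (against 16.0%) or by fold (14.2%), 5 by centred pileup (40.7%) and 0 with −log10 q of at least 5 (14.8%) or 10 (13.7%). Dnmt3a had a difference of -4.13 points with the 5′-most TSS alone, where its internal promoter is left out by construction. Dnmt3b kept its sign in 11 of 11 alternatives and its call in 8, and Dnmt3l likewise in 11 and 8. The main Dnmt3l value is that of the peak near the Aire TSS. A promoter window of 500 bp leaves this peak out, and the Dnmt3l difference was then 23.3 points. Among regions, the 5 WT-restricted ones became 3 with −log10 q of at least 10 (against 6.92% of all regions) and 1 within 10 kb (10.4%). The K20R-restricted count of 1 became 2 with −log10 q of at least 10 (2.6%) or within 100 kb (3.1%), 5 with lists of equal length (6.29%) and 0 within 10 kb (3.1%). Of the common regions, 20 were lower and 17 higher of 63 by centred pileup (against 23.7% and 35.6%), 9 and 4 of 38 with −log10 q of at least 10 (19.6% and 13.9%), 16 and 13 of 61 with lists of equal length (22.6% and 33.1%), and 11 and 4 of 22 within 10 kb (34.8% and 18.6%). Higher regions numbered 5 of 52 with −log10 q of at least 5 (16.1%) and 14 of 101 within 100 kb (18.6%). The K20R minus WT difference of 0.5 peaks per library was -4.5 with −log10 q of at least 10, 7.5 with lists of equal length and -4 within 100 kb. Why these values moved was not tested, apart from the smaller sets of regions.

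With 1 library left out, which can only add separated or restricted items in the same set, lower genes numbered 1 to 3 (against 42.3% to 50.0% of all genes) and higher genes 2 to 4 (25.0% to 31.0%), with 3 and 4 without WT replicate 1 or without WT replicate 2. WT-restricted regions numbered 6 to 9 (12.6% to 20.8%), with 9 without WT replicate 2 (17.3%). K20R-restricted regions numbered 2 to 7 (4.44% to 8.05%), with 2 without WT replicate 1 and 7 without any of the other libraries. Of 63 to 69 common regions, 11 to 15 were higher (25.4% to 35.1%), with 15 without WT replicate 1 or 2, and 37 to 45 were lower (42.8% to 51.2%). The percentile deviations of libraries with the same replicate number had a correlation of 0.053 over common regions. A shift of a whole library, such as the taller peaks of both second replicates, does not show in ranks within a list. Whether libraries of the same number shared a batch was therefore not tested. With the replicate number as a block, 1 gene was lower and 2 were higher (against 41.3% and 21.7%), and 35 of 63 common regions were lower and 8 higher (42.8% and 24.7%). With 2 libraries a genotype and no read totals, depth limits these values to ranks.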
